A study of Mus musculus with 6 samples.

Results

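A set of 29 genes of cholesterol synthesis and of its sterol-sensing control was followed across cells labelled as hematopoietic stem cells (HSCs) that had been sorted by surface MHC class II (MHCII). The genes were listed by name and ordered by their place in the pathway: 7 enzymes of the mevalonate arm, 11 enzymes from squalene to cholesterol, 5 genes of the SREBP switch, and 6 genes of sterol transport, efflux and the liver X receptors. All 29 were found among the 30803 genes of each table, and 26 of them passed the expression limit for testing, set at 1 FPKM averaged across the 6 libraries (FPKM counts the fragments of a gene relative to its transcript length and to all mapped fragments of the library). Bone marrow of wild-type (WT) mice aged 12 months was the source of both groups, MHCII_lo with 3 libraries and MHCII_hi with 3, and no other allele or treatment is labelled. How the stem cells were gated, and whether animals were pooled or shared between libraries, is not given in the sources used here, so p-values measure the spread between libraries, which may be technical.

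Cells make cholesterol from acetyl-CoA: the mevalonate arm builds isoprenoid units, which are joined to squalene, folded into lanosterol and trimmed to cholesterol in the endoplasmic reticulum. When membrane sterol is low, SCAP carries SREBP transcription factors to the Golgi, where proteases free the part that enters the nucleus and turns on the synthesis genes. INSIG proteins hold SCAP back when sterol is plentiful, while oxysterols, which form from surplus cholesterol, activate the liver X receptors (LXRs), which turn on genes of sterol export. In blood-forming cells, sterol export through ABCA1 and ABCG1 is known to restrain the growth of stem and progenitor cells.

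Letters of the SREBP site and of its usual partner sites were sought in RefSeq promoter windows (GRCm38.p6, 250 bases before to 50 after each start), which 24 of the 29 genes had. The SREBP consensus TCACNCCAC, where N is any base, was found on either strand in the window of 1 gene, Hmgcs1 (4.17% of the 24), against 1.44% of the 27025 genes with a window and 1.32% of the 8334 tested genes with a window. CCAAT, the site of NF-Y, was in 19 of 24 (79.2%, against 41.1% of all genes with a window and 43.8% of the tested), and the GC box GGGCGG in 21 of 24 (87.5%, against 38.2% and 68.8%). No matches overlapped each other in these windows. The 250 bases upstream of 5 genes are printed because these genes carry the differences described further on: Hmgcs1, Msmo1 and Hsd17b7 were higher in MHCII_hi, and Acat2 and Insig1 lower, in every one of the 16 alternative analyses that tested them (Msmo1 and Hsd17b7 were not tested at a limit of 5 FPKM). They read 5′ to 3′ on the strand of the gene, with matches to the motifs, on either strand, in capitals. Hmgcs1 lies at chr13:119690101-119690350 on the plus strand, Msmo1 at chr8:64733579-64733828 on the minus strand, Hsd17b7 at chr1:169969206-169969455 on the minus strand, Acat2 at chr17:12960726-12960975 on the minus strand and Insig1 at chr5:28071162-28071411 on the plus strand.
Hmgcs1: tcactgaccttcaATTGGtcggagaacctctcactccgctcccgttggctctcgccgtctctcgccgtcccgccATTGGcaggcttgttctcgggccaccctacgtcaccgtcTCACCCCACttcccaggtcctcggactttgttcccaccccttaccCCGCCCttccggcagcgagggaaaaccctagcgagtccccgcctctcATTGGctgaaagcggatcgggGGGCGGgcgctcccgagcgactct
Msmo1: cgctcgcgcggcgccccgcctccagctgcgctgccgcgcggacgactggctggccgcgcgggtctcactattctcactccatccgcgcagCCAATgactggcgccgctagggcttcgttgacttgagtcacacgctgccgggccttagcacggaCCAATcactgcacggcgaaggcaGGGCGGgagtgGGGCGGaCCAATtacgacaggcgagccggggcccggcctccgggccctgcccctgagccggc
Hsd17b7: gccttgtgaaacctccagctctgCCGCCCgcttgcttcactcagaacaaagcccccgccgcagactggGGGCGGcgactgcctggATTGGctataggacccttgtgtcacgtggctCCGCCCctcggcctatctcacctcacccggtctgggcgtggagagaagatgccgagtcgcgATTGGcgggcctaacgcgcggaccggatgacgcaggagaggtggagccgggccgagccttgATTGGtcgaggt
Acat2: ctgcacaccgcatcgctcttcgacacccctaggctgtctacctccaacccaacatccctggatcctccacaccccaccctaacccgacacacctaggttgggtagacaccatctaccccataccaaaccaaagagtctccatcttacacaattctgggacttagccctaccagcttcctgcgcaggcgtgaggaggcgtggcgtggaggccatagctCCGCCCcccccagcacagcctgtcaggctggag
Insig1: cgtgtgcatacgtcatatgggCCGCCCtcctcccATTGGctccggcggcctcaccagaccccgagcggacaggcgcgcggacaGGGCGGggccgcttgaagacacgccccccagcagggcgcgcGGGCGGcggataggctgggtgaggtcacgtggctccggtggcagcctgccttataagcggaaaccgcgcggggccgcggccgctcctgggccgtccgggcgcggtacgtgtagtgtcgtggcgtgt

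In Hmgcs1 the SREBP letters began 137 bases before the start, between CCAAT matches on either side. Msmo1 and Hsd17b7 held 3 CCAAT matches each, and Insig1 held 1 CCAAT match with 3 GC boxes. Acat2 held a GC box alone, 33 bases before the start. A match is a run of letters and not a measured site, and its part in any difference was not tested.

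**Figure D1:**
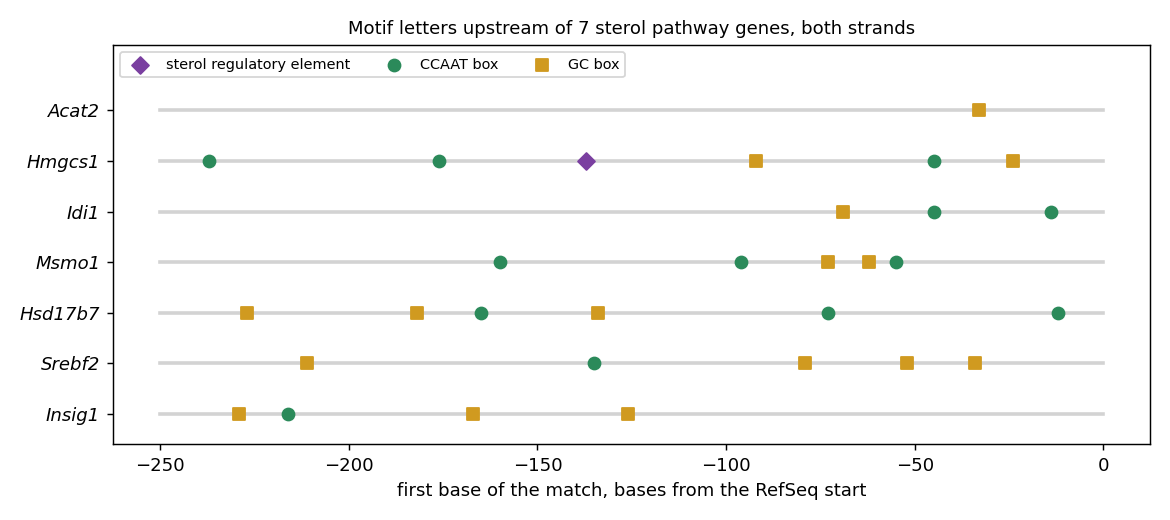
Positions of the searched letters in the 250 bases before the RefSeq start (horizontal axis, bases) of 7 genes whose call held under every alternative that tested them and that had 1 promoter window. The diamond marks the SREBP consensus, found in Hmgcs1 alone among the 7, circles mark the NF-Y box and squares the GC box. Acat2 shows a single square.

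The libraries were alike within a group (correlation of log2 values 0.991 to 0.993) and less so between groups (0.945 to 0.946, 12049 genes). Class II transcripts checked the sort: Cd74, H2-Eb1, H2-Ab1 and H2-Aa were all higher in MHCII_hi, with summed levels of 79.4 to 82.9 FPKM in MHCII_lo and 124 to 126 FPKM in MHCII_hi. Of 10 stem cell markers, 6 (Procr, Slamf1, Mecom, Fgd5, Hoxb5 and Ctnnal1, chosen after their values were seen) stayed between 0 and 0.79 FPKM in every library. Kit and Ly6a, the highest of the 10, stood at 13.66 to 14.51 and 9.15 to 11.69 FPKM over the 6 libraries and did not pass the test. The 12 neutrophil markers were all higher in MHCII_hi and made up 2.79 to 2.82% of summed FPKM in MHCII_lo and 15.6% in every MHCII_hi library. FPKM values are relative to the whole library, and the median tested gene stood at a log2 fold change of −0.12, against −0.02 after median-ratio scaling. All log2 fold changes here are MHCII_hi minus MHCII_lo on the log2(FPKM + 1) scale, which understates changes of low genes. In bulk RNA, a change in the share of cells of a type and a change in RNA per cell cannot be told apart.

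Among the sterol genes, 8 of 17 tested enzymes of synthesis were higher in MHCII_hi and 2, Acat2 and Ebp, were lower. The other 7 did not pass the test. In the SREBP switch Insig1 and Srebf1 were lower and Srebf2 was higher. Of the 26 sterol genes tested, 10 were higher and 5 lower at a limma adjusted p under 0.05. Among all tested genes 20.3% were called higher and 40.5% lower, 60.9% in all. The median log2 fold change of the 26 was 0.06, against −0.12 for all tested genes, a difference of 0.18. Without MHCII_lo replicate 1 or 2 the median of the 26 was 0.11 or 0.10. After median-ratio scaling 14 were higher and 4 lower, where 27.0% and 27.2% of all genes were called. With totals taken without the neutrophil markers, 14 were higher and 2 lower, where 3358 and 3157 of the 12049 tested genes were called. The split over all genes moved in the same way, from 2451 higher and 4883 lower as deposited to 3258 and 3282 after median-ratio scaling. The 3 MHCII_hi values lay wholly above the 3 MHCII_lo values in 11 of the 26 and wholly below them in 5. The same was seen in 22.6% and 45.0% of all tested genes, or 67.6% together. In the same libraries 7 of 10 proliferation markers were lower and none higher by limma as deposited (8 lower and 0 higher at an unadjusted p under 0.05; 5 lower and 1 higher after median-ratio scaling), with summed levels of 665 to 682 FPKM in MHCII_lo and 549 to 558 in MHCII_hi. The part of the neutrophil or proliferation transcripts in the sterol genes' differences was not tested.

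**Figure D2:**
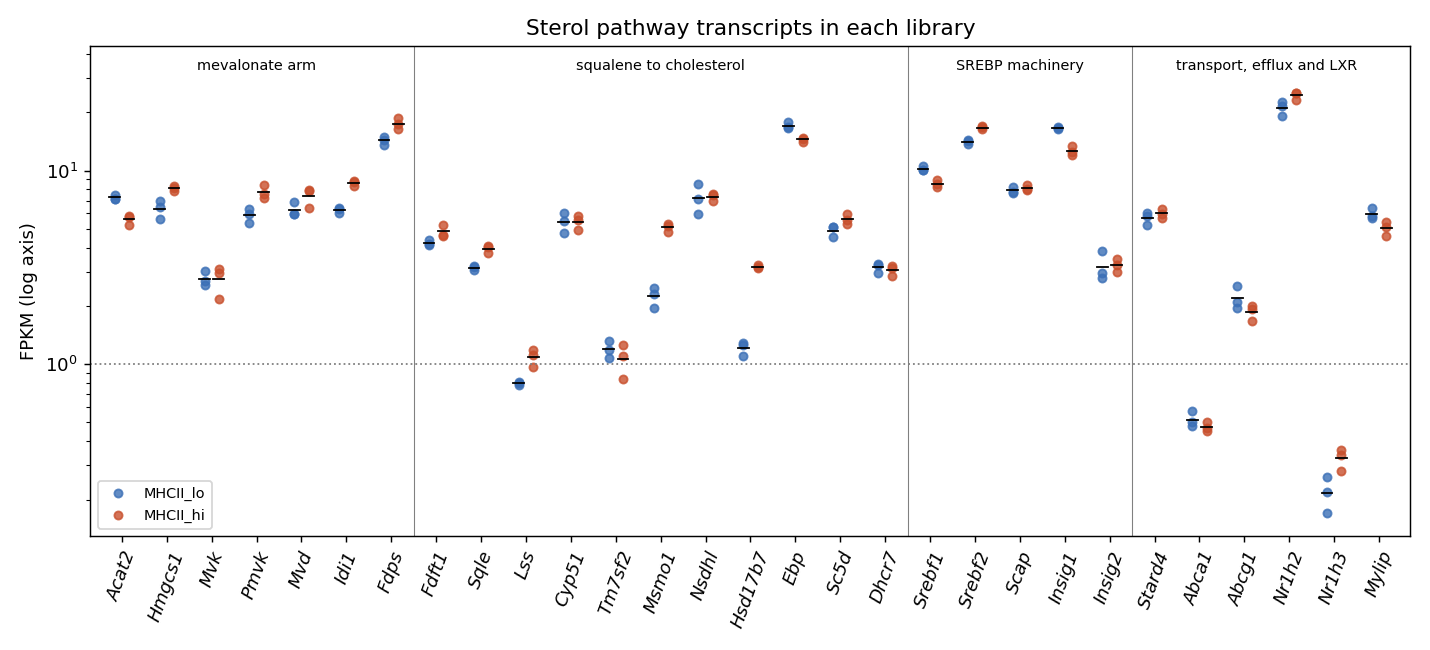
Level of each of the 29 genes in each library (vertical log axis, FPKM), in pathway order with MHCII_lo in blue and MHCII_hi in red. Points are libraries, short lines are group means and the dotted line is 1 FPKM. The widest gaps between groups are those of Msmo1 (1.94 to 2.48 against 4.81 to 5.29 FPKM) and Hsd17b7 (1.10 to 1.28 against 3.15 to 3.26 FPKM).

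In the mevalonate arm, 4 of 7 enzymes were higher in MHCII_hi, 1 was lower and 2 did not pass the test. Over all tested genes, 20.3% were called higher and 40.5% lower. The median log2 fold change of the arm was 0.27 (0.39 relative to the median gene), and the summed level of the 7 was 47.1 to 51.4 FPKM in MHCII_lo and 57.4 to 57.9 FPKM in MHCII_hi. Acat2, the cytosolic thiolase that joins acetyl-CoA units ahead of the pathway, was the exception. It stood at 7.5, 7.13 and 7.16 FPKM in MHCII_lo and at 5.23, 5.84 and 5.77 FPKM in MHCII_hi. Every MHCII_hi library was below every MHCII_lo library (log2 fold change −0.32, SE 0.051, adjusted p 0.00149). Acat2 shares 39.1% of its 50-base transcript stretches with Acat3, a neighbouring copy listed at 0.827 ± 0.182 FPKM (SD, n = 3) in MHCII_lo and 0.587 ± 0.102 FPKM in MHCII_hi, so how reads were divided between them is uncertain.

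The next enzyme, Hmgcs1, the synthase that makes HMG-CoA, moved the other way. Its values were 6.46, 6.95 and 5.61 FPKM in MHCII_lo and 8.10, 8.31 and 7.83 FPKM in MHCII_hi. The groups did not overlap (log2 fold change 0.31, SE 0.071, adjusted p 0.00806). Pmvk, which adds a phosphate to phosphomevalonate, read 6.33, 5.99 and 5.38 FPKM in MHCII_lo and 8.43, 7.53 and 7.23 FPKM in MHCII_hi (log2 fold change 0.34, SE 0.073, adjusted p 0.00605). Idi1, the isomerase of the isoprenoid units, had the largest rise of the arm. It went from 6.33, 6.42 and 6.01 FPKM to 8.88, 8.34 and 8.76 FPKM, again without overlap (log2 fold change 0.41, SE 0.043, adjusted p 0.000208). Fdps, which builds farnesyl diphosphate, the branch point towards sterols and prenylated proteins, read 14.95, 13.61 and 14.36 FPKM in MHCII_lo and 16.38, 17.41 and 18.64 FPKM in MHCII_hi (log2 fold change 0.27, SE 0.056, adjusted p 0.00504). Fdps and Idi1 share 26.2% and 17.7% of their 50-base stretches with other annotated genes, mostly predicted ones. The highest of those sharing most with Idi1, Gm13502, stood at 2.97 ± 0.597 FPKM (SD, n = 3) in MHCII_lo and 3.58 ± 0.693 FPKM in MHCII_hi. For Fdps it was Gm3571, at 3.67 ± 0.756 and 4.38 ± 0.614 FPKM. Neither was called by limma (adjusted p 0.259 and 0.210). How reads were divided between these genes and Idi1 or Fdps is uncertain. Exons of the predicted gene Gm48342 on the other strand cover 12.1% of Hmgcs1, at 0.06 FPKM or less in every library.

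The other 2 enzymes of the arm lay between. Mvk, mevalonate kinase, had overlapping groups, at 3.02, 2.69 and 2.57 FPKM in MHCII_lo and 2.96, 2.18 and 3.10 FPKM in MHCII_hi (log2 fold change −0.01, adjusted p 0.929, and 0.07 after median-ratio scaling). Mvd, the decarboxylase that gives the first isoprenoid unit, read 6.85, 5.94 and 5.99 FPKM in MHCII_lo and 7.92, 7.80 and 6.39 FPKM in MHCII_hi. The lowest MHCII_hi value of Mvd, in replicate 3, fell among those of MHCII_lo (log2 fold change 0.20, SE 0.088, adjusted p 0.0836). Without that library Mvd was called higher (adjusted p 0.0141), as it was after median-ratio scaling (0.0229).

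From squalene to cholesterol, 4 of 10 tested enzymes were higher in MHCII_hi and 1 was lower (20.3% and 40.5% of all tested genes). The other 5 did not pass the test. The median log2 fold change of the 10 was 0.10 (0.22 relative to the median gene). The 2 largest rises of all 26 genes were in enzymes that act on neighbouring steps, the removal of the C-4 methyl groups of the sterol ring. Hsd17b7, the 3-keto-sterol reductase of that step, read 1.28, 1.10 and 1.25 FPKM in MHCII_lo and 3.17, 3.26 and 3.15 FPKM in MHCII_hi. The MHCII_hi mean was 2.64 times that of MHCII_lo, with the groups far apart (log2 fold change 0.92, SE 0.064, adjusted p 2.6e-05). Msmo1, the C-4 methyl oxidase that opens the step, read 1.94, 2.48 and 2.31 FPKM in MHCII_lo and 5.29, 4.81 and 5.20 FPKM in MHCII_hi, a mean 2.27 times higher (log2 fold change 0.91, SE 0.076, adjusted p 6.6e-05). Nsdhl, the dehydrogenase that acts between them, spread widely in MHCII_lo (8.50, 7.16 and 5.98 FPKM) and overlapped with MHCII_hi (7.45, 7.55 and 6.98 FPKM; adjusted p 0.820).

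The enzymes that make squalene and oxidize it, Fdft1 and Sqle, rose by less. Sqle, squalene epoxidase, a rate-limiting step of the pathway, read 3.17, 3.05 and 3.22 FPKM in MHCII_lo and 4.06, 4.03 and 3.73 FPKM in MHCII_hi. All MHCII_hi values of Sqle were above all MHCII_lo values (log2 fold change 0.25, SE 0.052, adjusted p 0.00525). Fdft1, squalene synthase, read 4.36, 4.15 and 4.14 FPKM in MHCII_lo and 4.67, 4.61 and 5.26 FPKM in MHCII_hi. The groups did not overlap, and the adjusted p was close to the threshold (log2 fold change 0.16, SE 0.058, adjusted p 0.0447). The call of Fdft1 was lost without a filter on low values (adjusted p 0.0970), without MHCII_lo replicate 1, 2 or 3 (0.0638, 0.108 and 0.111) and without MHCII_hi replicate 1 or 3 (0.0588 and 0.122). Exons of Ctsb on the other strand cover 18.3% of the exonic bases of Fdft1, and Ctsb, a lysosomal protease, was lower in MHCII_hi (81.6 ± 2.15 to 61.3 ± 0.675 FPKM, SD, n = 3), so its reads and those of Fdft1 may be mixed if strand was not used. Lss, which closes the ring to lanosterol, stayed under the limit for testing, at 0.81, 0.80 and 0.78 FPKM in MHCII_lo and 0.97, 1.19 and 1.12 FPKM in MHCII_hi.

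The other steps of the ring's remodelling differed among themselves. Ebp, the sterol isomerase and the most abundant transcript of this arm, was lower in MHCII_hi. It read 16.62, 17.76 and 16.86 FPKM in MHCII_lo and 14.81, 14.62 and 14 FPKM in MHCII_hi, without overlap (log2 fold change −0.22, SE 0.039, adjusted p 0.00238). That call was lost with totals taken without the neutrophil markers (log2 fold change −0.10, adjusted p 0.0605). Sc5d, the C-5 desaturase, read 4.52, 5.08 and 5.09 FPKM in MHCII_lo and 5.30, 5.57 and 5.97 FPKM in MHCII_hi. These groups did not overlap either, but the test was missed as deposited (log2 fold change 0.17, adjusted p 0.0523). Sc5d passed after median-ratio scaling (0.26, adjusted p 0.0100) and without MHCII_hi replicate 1 (0.0462). Cyp51, which demethylates lanosterol, had equal group means of 5.43 FPKM. Its libraries ranged from 4.74 to 6.07 FPKM in MHCII_lo and from 4.91 to 5.83 FPKM in MHCII_hi (adjusted p 0.982). Dhcr7, the last reductase, spanned 2.96 to 3.29 FPKM and 2.86 to 3.22 FPKM (adjusted p 0.650), and Tm7sf2, a C-14 reductase, 1.07 to 1.32 FPKM and 0.84 to 1.26 FPKM (adjusted p 0.490). Tm7sf2 shares 12.1% of its exonic bases with Vps51, so its level is uncertain. For these 3 enzymes the difference between groups was smaller than the spread within them.

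**Figure D3:**
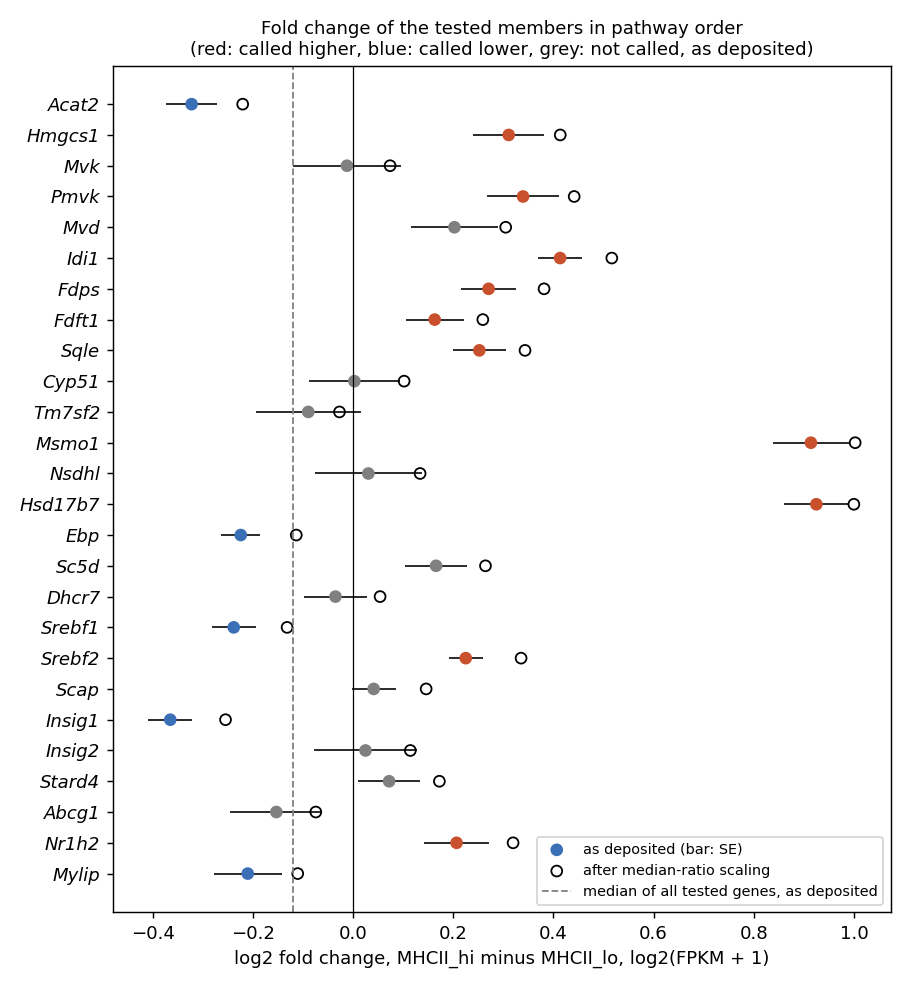
Log2 fold change (horizontal axis, MHCII_hi minus MHCII_lo on the log2(FPKM + 1) scale) of the 26 tested genes in pathway order, as deposited (filled points, bars are the SE) and after median-ratio scaling (open circles). Hsd17b7 and Msmo1 stand at 0.92 and 0.91, and Insig1 is the lowest at −0.36. The dashed line is the median of all tested genes, −0.12.

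The genes of the SREBP switch went apart from each other. Of 5 tested, Srebf2 was higher, Srebf1 and Insig1 were lower, and Scap and Insig2 did not pass the test. Calls over all tested genes were 20.3% higher and 40.5% lower. Srebf2 encodes SREBP2, the factor known mainly for cholesterol synthesis genes. It read 14.40, 13.73 and 14.22 FPKM in MHCII_lo and 16.31, 16.74 and 16.95 FPKM in MHCII_hi (log2 fold change 0.22, SE 0.034, adjusted p 0.00117). Srebf1 encodes SREBP1, known mainly for fatty acid synthesis and itself an LXR target. It read 10.09, 10.03 and 10.58 FPKM in MHCII_lo and 8.18, 8.93 and 8.47 FPKM in MHCII_hi (log2 fold change −0.24, SE 0.044, adjusted p 0.00313). Neither gene's groups overlapped, and the call of Srebf1 was lost with totals taken without the neutrophil markers (log2 fold change −0.12, adjusted p 0.0556).

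Insig1, which retains SCAP in the endoplasmic reticulum and is itself a known SREBP target, fell most of the 26 genes. It read 16.85, 16.60 and 16.32 FPKM in MHCII_lo and 12.06, 13.42 and 12.53 FPKM in MHCII_hi. Every MHCII_hi library was below every MHCII_lo library (log2 fold change −0.36, SE 0.044, adjusted p 0.000400, and −0.25 after median-ratio scaling). Insig2, its paralog, read 2.94, 3.84 and 2.80 FPKM in MHCII_lo and 3.50, 3.24 and 3.0 FPKM in MHCII_hi, with overlap (adjusted p 0.848). Scap, the escort of the SREBPs, read 7.74, 8.26 and 7.70 FPKM in MHCII_lo and 7.97, 8.44 and 8.06 FPKM in MHCII_hi. Scap overlapped as deposited (log2 fold change 0.04, adjusted p 0.442) and was called higher after median-ratio scaling (0.15, adjusted p 0.0281). Exons of 5830462I19Rik on the other strand cover 13.2% of Scap, at 0.54 FPKM or less in every library.

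A ratio of 2 genes within a library does not depend on how the library is scaled, so 4 ratios, chosen after the values were seen, were set beside the fold changes. Srebf2 to Srebf1 was 1.43, 1.37 and 1.34 in MHCII_lo and 1.99, 1.87 and 2.0 in MHCII_hi. Hmgcs1 to Acat2 was 0.861, 0.975 and 0.784 in MHCII_lo and 1.55, 1.42 and 1.36 in MHCII_hi. Both ratios were higher in every MHCII_hi library than in any MHCII_lo library. That follows from the values above, since each ratio joins a gene wholly higher in MHCII_hi to a gene wholly lower. Insig1 to Insig2 was lower in MHCII_hi, at 5.73, 4.32 and 5.83 against 3.45, 4.14 and 4.18. For these 3 ratios the exact two-sided permutation p was 0.1, the smallest that 3 libraries against 3 allow (0.133 adjusted over the 4), so the design could not reach 0.05. The adjustment does not account for the choice of the pairs. The ratio of Nr1h2 to Nr1h3, the 2 LXR genes, overlapped (86.4 to 127 in MHCII_lo and 67.8 to 89.8 in MHCII_hi, exact permutation p 0.3).

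**Figure D4:**
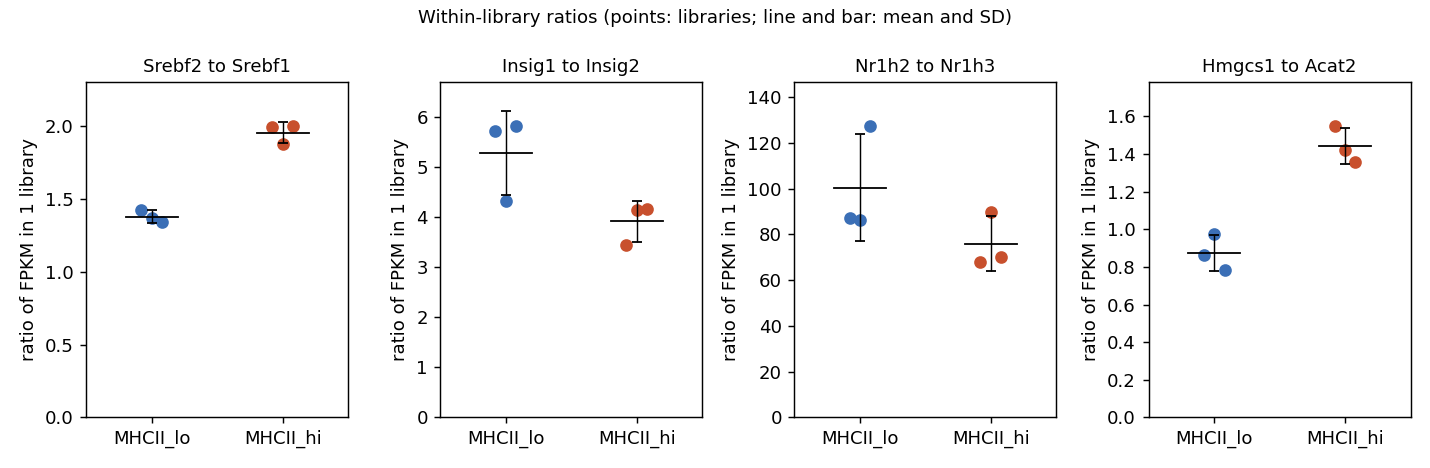
Ratios of FPKM within each library (vertical axes start at 0), for MHCII_lo in blue and MHCII_hi in red. Points are libraries, and the line and bar give the mean and SD of 3. Srebf2 to Srebf1 averages 1.38 in MHCII_lo and 1.96 in MHCII_hi, and Hmgcs1 to Acat2 averages 0.873 and 1.44, without overlap.

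Among genes of sterol transport, efflux and LXR control, 1 of 4 tested was higher and 1 lower (20.3% and 40.5% of all tested genes). Each of these sterol gene calls was lost under several alternatives. Nr1h2 encodes LXR beta, the widely expressed LXR, and had the highest level of the 29 genes. It read 19.20, 22.46 and 21.64 FPKM in MHCII_lo and 23.06, 25.15 and 25.21 FPKM in MHCII_hi, without overlap (log2 fold change 0.21, SE 0.064, adjusted p 0.0277). Its call was lost without MHCII_lo replicate 1 (adjusted p 0.0552), without MHCII_hi replicate 2 or 3 (0.0800 and 0.0813) and without a filter on low values (0.0667). Nr1h3, which encodes LXR alpha, had the lowest level of the 29, at 0.22, 0.26 and 0.17 FPKM in MHCII_lo and 0.34, 0.28 and 0.36 FPKM in MHCII_hi, and was not tested. Mylip, an LXR target whose product marks lipoprotein receptors for degradation, read 5.82, 5.67 and 6.40 FPKM in MHCII_lo and 5.40, 5.10 and 4.57 FPKM in MHCII_hi. The MHCII_hi values of Mylip were all lower (log2 fold change −0.21, SE 0.068, adjusted p 0.0329), but its call was lost under each of 4 other scalings (adjusted p 0.103 to 0.243), without a filter on low values (0.0777), without MHCII_lo replicate 1 or 3 (0.0612 and 0.0995) and without MHCII_hi replicate 2 or 3 (0.0635 and 0.0891).

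The exporters were low in both groups. Abca1, which loads cholesterol onto lipid-poor apolipoprotein, stayed between 0.45 and 0.57 FPKM in all 6 libraries and was not tested. Abcg1, which passes cholesterol to mature lipoprotein particles, read 1.95, 2.54 and 2.09 FPKM in MHCII_lo and 1.67, 1.93 and 2.0 FPKM in MHCII_hi, with overlap (log2 fold change −0.15, SE 0.092, adjusted p 0.188). Stard4, which carries sterol between membranes inside the cell, also overlapped, at 5.21 to 6.0 FPKM in MHCII_lo and 5.71 to 6.33 FPKM in MHCII_hi (adjusted p 0.340). Stard4 was called higher after median-ratio scaling (log2 fold change 0.17, adjusted p 0.0463).

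A further 5 lists of connected genes, written by known role, were read from the same fit. In the list of SREBP proteases and sterol-regulated degradation, 4 of 11 were higher and 2 lower, with a median of −0.02 (0.07 after median-ratio scaling). Of all tested genes 20.3% were called higher and 40.5% lower, with a median of −0.12. Erlin1, part of an endoplasmic reticulum complex that binds cholesterol and restrains SREBP, fell from 24.44, 24.48 and 24.10 FPKM to 15.62, 13.80 and 14.42 FPKM (log2 fold change −0.70, adjusted p 2.13e-05). Pgrmc1, a heme-binding partner of sterol-synthesis cytochromes, fell from 29.6 ± 0.942 to 23.8 ± 1.58 FPKM (SD, n = 3). The ubiquitin ligases Rnf145 and Syvn1 rose, from 4.46 ± 0.0252 to 5.39 ± 0.211 FPKM and from 7.52 ± 0.283 to 8.93 ± 0.420 FPKM.

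The branches that draw on mevalonate products were divided: 3 of 13 genes rose and 4 fell (3 and 2 after median-ratio scaling). Their median was −0.03 (0.08 after that scaling). Among all tested genes 20.3% were called higher and 40.5% lower (27.0% and 27.2% after that scaling). The enzyme of dolichol synthesis Dhdds rose from 16.15, 16.55 and 17.33 FPKM to 20.20, 19.56 and 20.41 FPKM, whereas Dolk, the dolichol kinase, fell from 2.17 ± 0.165 to 1.35 ± 0.0954 FPKM (SD, n = 3). Chm, the escort that presents Rab proteins for prenylation, rose from 3.67 ± 0.188 to 5.22 ± 0.127 FPKM (adjusted p 0.000400). Rabggtb, the catalytic subunit of the Rab prenylating enzyme, fell from 23.5 ± 0.661 to 17.4 ± 0.291 FPKM (adjusted p 5.31e-05). Members that act together in Rab prenylation therefore had opposite directions.

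Of the fatty acid synthesis genes, for which SREBP1 is the better known activator, none was called higher as deposited, though not all fold changes were negative. By limma 5 of 10 were lower and 0 higher (0 higher also at an unadjusted p under 0.05), with a median of −0.09 against −0.12 for all genes. Among all tested genes 40.5% were called lower and 20.3% higher. The split of the fatty acid synthesis genes depended on scaling, since 3 were higher and 2 lower after median-ratio scaling (median 0.01). After that scaling 27.0% of all tested genes were called higher and 27.2% lower. Fads2, a desaturase of polyunsaturated fatty acids, fell from 8.13, 8.30 and 8.12 FPKM to 5.94, 6.35 and 6.51 FPKM (log2 fold change −0.34, adjusted p 0.000567). The elongase Elovl6 fell from 3.42 ± 0.163 to 2.56 ± 0.221 FPKM (SD, n = 3), and both calls held after median-ratio scaling. The calls of the elongase Elovl5 (39.1 ± 0.795 to 34.0 ± 1.01 FPKM) and the desaturase Scd2 (26.2 ± 0.348 to 23.7 ± 0.589 FPKM) did not (adjusted p 0.0737 and 0.448).

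Genes of sterol uptake, lysosomal exit and esterification went both ways: 4 of 13 were higher and 5 lower (5 and 3 after median-ratio scaling), with a median of −0.10 (0.01 after that scaling), against −0.12 for all tested genes, of which 20.3% were called higher and 40.5% lower. Without MHCII_lo replicate 1, MHCII_hi replicate 1 or MHCII_hi replicate 3, 3 were lower. Soat2, which esterifies cholesterol for storage and secretion and is best known from liver and intestine, rose from 1.35, 1.20 and 1.53 FPKM to 5.33, 6.21 and 5.0 FPKM. Its MHCII_hi mean was 4.05 times that of MHCII_lo (log2 fold change 1.46, SE 0.089, adjusted p 1.43e-05). Lrp8, a lipoprotein receptor, rose from 2.27, 2.55 and 2.30 FPKM to 4.17, 4.48 and 4.32 FPKM (log2 fold change 0.66, adjusted p 8.29e-05). The 2 lysosomal genes named by the rule fell: Npc2, which hands cholesterol on for export from the lysosome, went from 62.47, 60.18 and 62.20 FPKM to 29.60, 33.50 and 31.89 FPKM (log2 fold change −0.94, adjusted p 4.52e-06). Lipa, the lysosomal acid lipase that frees cholesterol from its esters, fell from 8.63 ± 0.254 to 6.44 ± 0.275 FPKM (SD, n = 3).

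Among LXR partners, other LXR targets and oxysterol enzymes, 5 of 7 tested were lower and none higher by limma (1 higher at an unadjusted p under 0.05), with a median of −0.30 (−0.18 relative to the median gene). After median-ratio scaling 4 were lower and 1 higher. Among all tested genes 20.3% were called higher and 40.5% lower as deposited, and 27.0% and 27.2% after median-ratio scaling. Cyp27a1, which makes an oxysterol ligand of LXR, had the largest fall of the 5 lists, from 8.37, 7.96 and 8.06 FPKM to 3.03, 2.83 and 2.71 FPKM (log2 fold change −1.24, SE 0.050, adjusted p 1.71e-06). Arl4c, a small GTPase gene under LXR control, fell from 9.60, 8.53 and 9.40 FPKM to 4.55, 4.75 and 4.92 FPKM (log2 fold change −0.83, adjusted p 2.13e-05). Rxrb, an RXR partner of LXR, fell from 20.7 ± 0.829 to 15.4 ± 1.51 FPKM (SD, n = 3). Smpdl3a, another LXR target, went from 93.2 ± 0.828 to 85.2 ± 1.88 FPKM, and its call was lost after median-ratio scaling (adjusted p 0.698). Cyp27a1 and Npc2 are also well expressed in macrophages, and in the same libraries of 6 tested markers of monocytes and macrophages 5 fell and 1 rose (summed level of the 7 listed 641 to 649 FPKM in MHCII_lo and 405 to 430 FPKM in MHCII_hi). Markers of some other cell types were lower too. Of the dendritic cell markers 4 of 4 tested were lower, with summed levels of 59.3 to 60.9 FPKM in MHCII_lo and 22.2 to 22.8 FPKM in MHCII_hi. Of the basophil and mast cell markers 4 of 5 were lower (816 to 842 against 355 to 367 FPKM), of the eosinophil markers 3 of 4 (3952 to 4020 against 1684 to 1699 FPKM) and of the erythroid markers 5 of 6 (306 to 316 against 203 to 208 FPKM). Of the T and NK cell markers 2 of 3 tested were lower, and of the endothelial markers 1 of 1. Calls in the plasma cell, megakaryocyte, B cell and stem cell lists went only the other way. In that order, 3 of 5, 2 of 3, 1 of 2 and 2 of 4 tested markers were higher and 0 lower (20.3% and 40.5% of all tested genes). The part of any of these cell types in the falls was not tested.

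**Figure D5:**
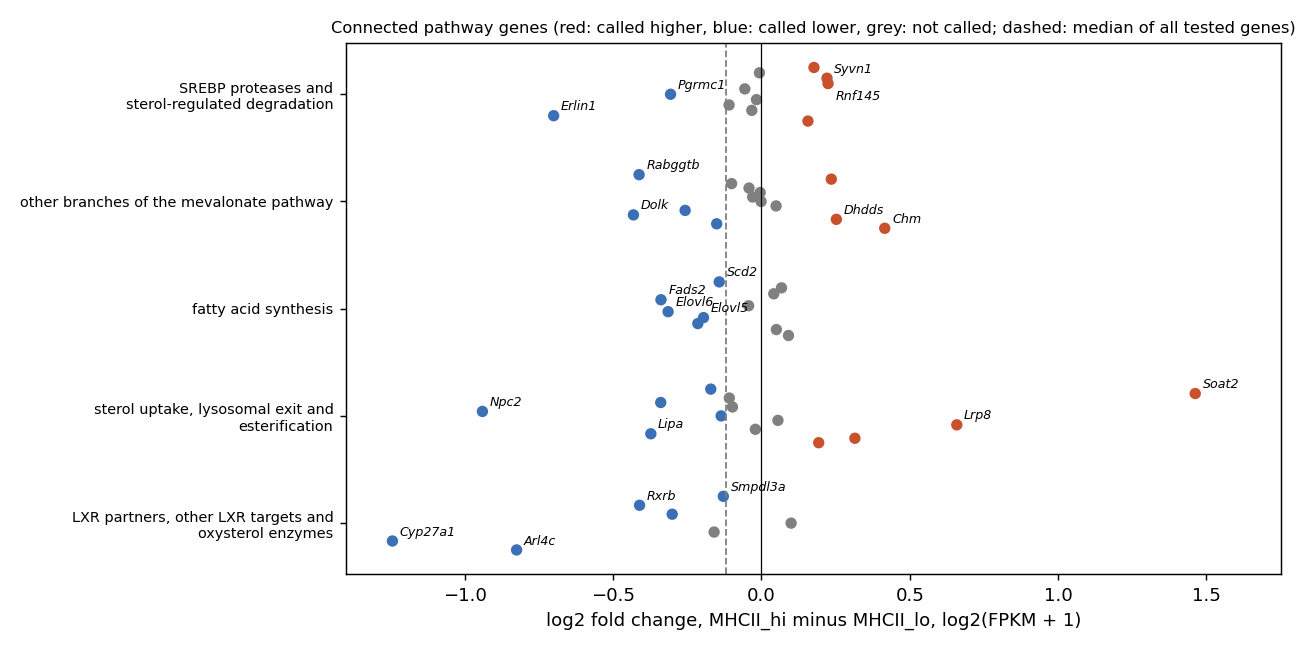
Log2 fold change (horizontal axis, MHCII_hi minus MHCII_lo on the log2(FPKM + 1) scale) of each tested gene of the 5 connected lists, red where called higher, blue where called lower and grey otherwise. Labels mark the 4 smallest p-values of each list. Soat2 lies farthest right at 1.46 and Cyp27a1 farthest left at −1.24, and the dashed line is the median of all tested genes.

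By level, the sterol genes spanned a wide range per transcript length. Nr1h2 led with a mean of 22.8 FPKM over the 6 libraries, followed by Fdps (15.9), Ebp (15.8), Srebf2 (15.4) and Insig1 (14.6). In MHCII_lo, Insig1 and Ebp were above Srebf2 in every library. In MHCII_hi the order turned, with every value of Srebf2 above every value of Insig1 and of Ebp. The lowest tested levels were those of Tm7sf2 (1.13), Abcg1 (2.03) and Hsd17b7 (2.20). The coefficient of variation between the 3 libraries of a group ran from 1.60% for Insig1 in MHCII_lo to 19.9% for Tm7sf2 in MHCII_hi, with a median of 6.05% over the tested genes, and Mvk and Nsdhl were also among the noisier enzymes.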

How the data were processed

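RNA of 3 MHCII_lo and 3 MHCII_hi samples was made into libraries with a stranded mRNA kit, per the labels' protocols. Per the submitters' processing notes, fastp, HISAT2, StringTie and the build GRCm38 (mm10) were used; the sources used here give neither versions nor use of strand. The authors deposited 1 table per library of 30803 values, taken to be FPKM from their decimals and their sums of 327364 to 346651; no header names the unit. Depth is unknown, so no counting interval or count model was used.

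The 12049 rows averaging 1 FPKM or more across the 6 libraries were compared as log2(FPKM + 1) with limma 3.58.1 in R 4.3.3 (intensity trend, group as the only term), with Benjamini-Hochberg adjustment over all tested genes at 0.05. Of rows that repeat a symbol (70), the highest kept it. The fit was tested on simulated data. Other steps ran in Python 3.11.15 (scipy 1.17.1, numpy 2.4.6, pandas 2.3.3). Exon overlaps and shared 50-base stretches came from GENCODE M21 (GRCm38), promoter windows from RefSeq (GRCm38.p6). The genes and lists were chosen with earlier results of these data known. All 29 sterol genes are named, and of each connected list the 4 genes with the smallest p; of marker lists, those of class II and proliferation and the 3 highest of each other list. The replicate number was no block in the comparison. Alternatives were other pseudocounts, filters, scalings and variance models, the block, and leaving out each library; median centring was added after the data were seen.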

Additional observations from a re-analysis of the deposited data

How the results depend on the processing

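Of the 15 calls among the sterol genes, 10 (8 higher and 2 lower) held under every alternative that tested them. With totals taken without the neutrophil markers, 3358 of all tested genes were higher and 3157 lower. Of the sterol genes 2 were lower, with 0 lower from squalene to cholesterol. The SREBP switch had 2 higher and 1 lower, and transport and LXR had 2 higher and 0 lower. In the same setting the branch list had 2 lower, fatty acid synthesis 3 higher and 2 lower, sterol uptake 3 lower and the LXR partner list 1 higher. Median-ratio scaling gave 2 higher in the SREBP switch, 2 higher and 0 lower in transport and LXR, and the same values for the 4 connected lists just named. Quantile normalization and median centring (added after the data were seen) each gave 0 lower in transport and LXR, 3 lower in uptake and 1 higher among LXR partners; centring gave 1 higher and 3 lower in fatty acid synthesis. The median log2 fold change of the sterol genes was 0.16, 0.12, 0.17 and 0.13 under median-ratio scaling, quantile normalization, totals without neutrophil markers and centring. Without a filter, transport and LXR had 0 higher and 0 lower and uptake 3 lower; at a mean of at least 5 FPKM, where fewer genes are tested, squalene to cholesterol had 1 higher, fatty acid synthesis 3 lower and uptake 2 higher. Leaving out each library in turn gave a median of 0.065 to 0.11, 0 to 1 higher and 0 to 1 lower in transport and LXR, and 3 to 4 lower in uptake. Over all tested genes, median-ratio scaling gave 3258 higher and 3282 lower, quantile normalization 2813 and 4037, and centring 2999 and 3672. Without a filter 2768 and 4601 of 26915 genes were called, and at 5 FPKM 1779 and 3497 of 7356. With a library left out, 2211 to 2284 genes were higher and 4336 to 4515 lower. The cause of these shifts was not tested.

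Deviations from the group mean correlated at −0.0422 to −0.0401 between same-numbered libraries and at 0.00794 to 0.0356 between differently numbered ones. Whether same-numbered libraries shared animals or handling cannot be told from these values. With the replicate block 2309 genes were higher and 4662 lower, 11 sterol genes were higher and 4 lower, and 0 were lower in transport and LXR. The block took the calls of Fdft1 (adjusted p 0.0775) and Mylip (0.0736) and added Mvd (0.0475) and Sc5d (0.0373).

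Only sterol genes without a call changed sign; the cause was not tested. Under median-ratio scaling, quantile normalization, totals without neutrophil markers and centring, in that order, Mvk was at 0.074, 0.061, 0.082 and 0.062, and Dhcr7 at 0.054, 0.045, 0.062 and 0.039. Leaving out each library in turn, Mvk ranged from −0.082 to 0.10, Cyp51 from −0.076 to 0.074, Nsdhl from −0.081 to 0.14, Dhcr7 from −0.072 to 0.0026 and Insig2 from −0.042 to 0.13. Depth is unknown, and low genes such as Lss and Nr1h3 could not be tested.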
